A study of Mus musculus with 16 samples.

Results

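The 10 genes described here encode junction and surface proteins of epithelial cells (Cdh1, Epcam, Marveld3 and Rab25), transcription factors that maintain epithelial identity (Elf3, Ehf, Grhl2 and Ovol1) and RNA splicing regulators of epithelia (Esrp1 and Esrp2). They were chosen by gene name, and all 10 were found among the 54532 genes of the deposited tables. RNA was sequenced from KPC1199 cells, a mouse pancreatic cancer line, sorted from tumours grown in the pancreas. The groups were Ly6d overexpression cells and WT cells, in a table of raw counts, and cells with high Ly6d expression and cells with low Ly6d expression, in a separate table of TPM, which scales reads by gene length and library size. Each group had 2 libraries. Ly6d is a Ly6-family membrane protein, and the study's question was its role in pancreatic cancer initiation and growth. The sources used here do not give the means of overexpression, the alleles of the line, whether it was 1 clone or whether the libraries of a group came from separate animals. The p-values therefore measure the spread between these libraries, which may be technical. The library name heading the overexpression columns is given by the labels to overexpression tumours, and that heading the WT columns occurs in the names of both sorted WT cells and WT tumours. Their assignment to sorted cells is an inference from these names.

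E-cadherin, the product of Cdh1, joins neighbouring epithelial cells at adherens junctions, and Epcam is a surface adhesion protein found on most simple epithelia. Grainyhead-like 2 (Grhl2), Ovol1 and the Ets factors Elf3 and Ehf sustain epithelial gene programmes, and factors of the Zeb and Snail families repress Cdh1 and similar genes through E-box sequences during epithelial-mesenchymal transition. Normal ducts and acini of the pancreas also express Cdh1 and Epcam, so these genes do not by themselves separate tumour cells from normal epithelium.

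Promoter sequences for 3 of the 10 genes, Rab25, Epcam and Elf3, were in the RefSeq promoter table used here (GRCm38.p6). They are shown because no promoter of the other members was available there, and they were not chosen by their expression. Each line gives the 250 bases before the start annotated in RefSeq, 5′ to 3′ on the strand of the gene. They lie at chr3:88548280-88548529 (minus strand) for Rab25, chr17:87635729-87635978 (plus strand) for Epcam and chr1:135258473-135258722 (minus strand) for Elf3. The deposited tables place the start of Rab25 at 88548300 and that of Elf3 at 135258568, inside these windows. Capitals mark the E-box CACCTG on either strand. In Rab25 only, they also mark the loose Grainyhead motif AACNGGTT on the strand opposite the printed one, which reads AACCTGTT as printed.
Rab25: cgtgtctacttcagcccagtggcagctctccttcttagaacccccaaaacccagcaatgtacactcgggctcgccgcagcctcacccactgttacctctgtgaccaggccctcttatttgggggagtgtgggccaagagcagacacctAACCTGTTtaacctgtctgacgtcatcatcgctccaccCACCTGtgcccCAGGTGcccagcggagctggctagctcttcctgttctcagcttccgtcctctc
Epcam: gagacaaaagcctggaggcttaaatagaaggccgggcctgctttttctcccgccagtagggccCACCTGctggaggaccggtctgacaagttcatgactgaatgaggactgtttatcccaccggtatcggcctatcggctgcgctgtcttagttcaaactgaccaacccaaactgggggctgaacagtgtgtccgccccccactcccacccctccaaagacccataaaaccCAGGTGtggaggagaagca
Elf3: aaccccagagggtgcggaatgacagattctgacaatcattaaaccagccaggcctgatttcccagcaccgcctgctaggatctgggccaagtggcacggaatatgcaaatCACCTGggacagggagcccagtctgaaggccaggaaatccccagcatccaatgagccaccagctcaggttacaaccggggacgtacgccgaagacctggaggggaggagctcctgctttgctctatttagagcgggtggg

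All 3 promoters held the E-box. It occurred at -64 and -53 from the RefSeq start in Rab25, at -187 and -19 in Epcam and at -140 in Elf3. Over all 32851 promoters of the table, searched on both strands over 300 bases, 20.2% held at least 1 E-box and 2.88% held 2 or more. The loose Grainyhead motif began at -102 in Rab25 and was in 2.09% of all promoters. The strict Grainyhead motif AACCGGTT, the Ets motif GGAAGT, the Ovo motif CCGTTA and the sequence TATAAA were searched on both strands and were in none of the 3 windows, against 0.146%, 23.8%, 2.76% and 13.6% of all promoters. The loose Grainyhead motif includes the strict one. These matches describe the letters of the windows and do not show binding.

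Library totals were 15449241 to 18290325 counts in the overexpression and WT libraries and 15063975 to 20509539 reads, recovered from TPM, in the libraries sorted by Ly6d. Ly6d had 3380 and 3423 CPM (counts scaled by library size) in overexpression libraries, against 1260.0 and 1066 CPM in WT libraries. It had 697 and 504 TPM in Ly6d-high libraries, against 1.56 and 0.352 TPM in Ly6d-low libraries, which were sorted on it. In CPM from recovered reads the Ly6d-high libraries had 203 and 136, below both WT libraries. WT cells were thus not a group with low Ly6d RNA, and levels were not tested between the separate tables. The tumour epithelium genes Krt7, Krt8, Krt18, Krt19 and Sox9 were detected in every library. The 4 keratins did not pass the test in overexpression cells and were lower in Ly6d-high cells (limma adjusted p = 0.00141 to 0.00544), where Krt7 alone was called with TMM factors. Krt7 had 1314 and 1294 TPM in Ly6d-high libraries, against 2060.0 and 1998 TPM in Ly6d-low libraries. None of the 4 was called with no filter, and Krt7 lost its call without Ly6d-low replicate 1 (limma adjusted p = 0.0890) and Krt18 without Ly6d-low replicate 2 (limma adjusted p = 0.0684).

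The 10 genes ranged from some of the most abundant protein-coding transcripts to low ones. Per length, Epcam was highest, and Elf3, Cdh1 and Ehf followed in this order in all 4 groups, each without overlap with the next. In overexpression cells the mean levels were 933 TPM for Epcam, 669.6 TPM for Elf3 and 367 TPM for Cdh1, and in WT cells 779, 452 and 313 TPM. In Ly6d-high cells they were 1983, 945 and 206 TPM, and in Ly6d-low cells 2361, 875 and 168 TPM. Epcam lay above 99.2% of protein-coding genes with any reads in overexpression cells and above 99.7% of them in Ly6d-high cells.

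Ehf had a mean of 62.2 TPM in overexpression, 61.0 TPM in WT, 97.8 TPM in Ly6d-high and 57.8 TPM in Ly6d-low cells. Esrp2, Marveld3, Esrp1 and Rab25 followed between 6.15 and 15.8 TPM in overexpression and WT cells, and their order was not clear there, since several neighbours overlapped. Ovol1 and Grhl2 were last in overexpression and WT cells, at 0.794 and 0.650 TPM in overexpression cells and at 1.37 and 1.46 TPM in WT cells, and they overlapped with each other in both groups. Rab25 ranked 5 of 10 in Ly6d-high cells and 7 of 10 in Ly6d-low cells, and Grhl2 was last in both. In WT replicate 2 a gene of 57 bases, Gm23935, took 30.1% of all TPM, against 2.45% to 3.45% in the other 3 libraries of that table, so TPM there lowers every other gene of that library. Levels between libraries of that table are therefore given in CPM.

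**Figure D1:**
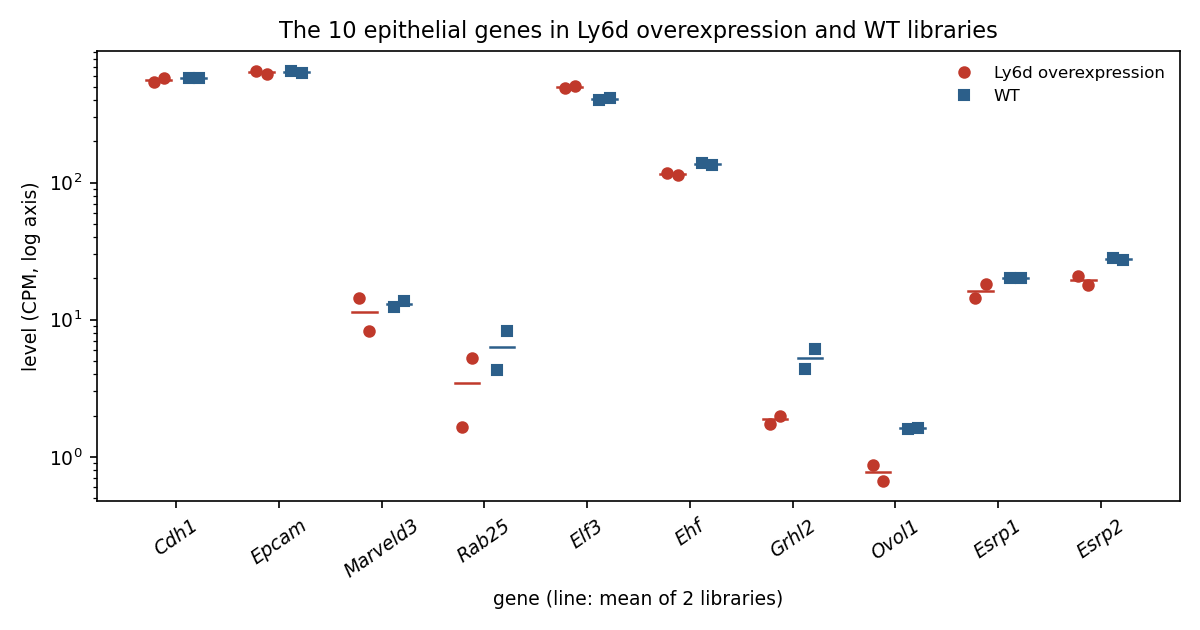
Level of each gene in the Ly6d overexpression (red circles) and WT (blue squares) libraries, in CPM on a log axis; each point is a library and each line the mean of 2 libraries. Elf3 lies higher in overexpression, and Grhl2 and Ovol1 lie lower, without overlap between the groups.

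The first comparison asked what Ly6d overexpression changed. Of the 10 genes, Elf3 was higher and none was lower at an adjusted p under 0.05 in the edgeR quasi-likelihood test, over 15771 genes tested, of which 2.32% were higher and 1.84% lower. At an unadjusted p under 0.05, Ehf, Esrp2 and Grhl2 were lower as well, against 9.05% of all genes tested higher and 8.24% lower by that rule, and DESeq2 also called Elf3 alone, with 2.24% of its genes higher and 1.66% lower. With no filter on low counts, Elf3 was higher and Ehf, Esrp2 and Grhl2 were lower, against 2.42% and 2.3% of all genes. The 2 groups did not overlap for Elf3, which was higher, and for 5 genes that were lower (Ehf, Esrp1, Esrp2, Grhl2 and Ovol1), against 26.3% and 21.7% of all genes tested. The median log2 fold change of the 10 genes was -0.29, beside -0.0012 over all genes tested.

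The junction and surface genes Cdh1 and Epcam were at nearly equal levels in the 2 groups. Cdh1 had 541 and 583 CPM in overexpression libraries, against 579 and 577 CPM in WT libraries, and Epcam had 649.6 and 625 CPM, against 648 and 633 CPM. The libraries of the groups overlapped for both. The log2 fold changes were -0.06 ± 0.07 for Cdh1 and -0.02 ± 0.06 for Epcam (SE; edgeR adjusted p = 0.735 and 0.893).

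The other junction and traffic genes varied most between libraries of 1 group. Marveld3, a membrane protein of tight junctions, had 14.4 and 8.33 CPM in overexpression libraries, against 12.5 and 13.7 CPM in WT libraries. Rab25, a small GTPase that recycles membrane to the apical surface, had 1.64 and 5.28 CPM in overexpression libraries, against 4.31 and 8.29 CPM in WT libraries. The groups overlapped for both, and neither passed the test (edgeR adjusted p = 0.733 and 0.417). Without overexpression replicate 2 the log2 fold change of Rab25 was -1.95 (edgeR adjusted p = 0.00609), against -0.27 without replicate 1, and without overexpression replicate 1 that of Marveld3 was -0.67 (edgeR adjusted p = 0.0457), against 0.12 without replicate 2.

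Of the Ets factors, Elf3 passed the test and Ehf did not. Elf3 had 491 and 503 CPM in overexpression libraries, against 398 and 414 CPM in WT libraries, a log2 fold change of 0.27 ± 0.06 (SE; edgeR adjusted p = 0.0357). Both overexpression libraries lay above both WT libraries, but the call was lost without any 1 of 3 libraries: the adjusted p was 0.0642 without overexpression replicate 1, 0.132 without overexpression replicate 2 and 0.0570 without WT replicate 1. Without WT replicate 2 it was 0.00213. Ehf had 119 and 114 CPM, against 139 and 135 CPM in WT libraries, and did not pass the test (log2 fold change -0.25 ± 0.07, SE; edgeR adjusted p = 0.0757). Within a library, the TPM ratio of Elf3 to Ehf was 10.4 and 11.1 in overexpression libraries, against 7.19 and 7.73 in WT libraries.

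Grhl2 had 1.75 and 2.0 CPM in overexpression libraries, from 32 and 36 counts, against 4.36 and 6.08 CPM in WT libraries, from 79 and 94 counts. The groups did not overlap and the overexpression mean was 0.359 of the WT mean, yet the gene missed the threshold (log2 fold change -1.49 ± 0.40, SE; edgeR adjusted p = 0.0674). Without overexpression replicate 1 or 2 it passed (edgeR adjusted p = 0.0286 and 0.0190), and without WT replicate 1 or 2 it did not (edgeR adjusted p = 0.111 and 0.574). Ovol1, a zinc finger repressor, rested on 16 and 12 counts in overexpression and 29 and 25 counts in WT libraries. Its levels were 0.875 and 0.667 CPM, against 1.60 and 1.62 CPM in WT libraries, which did not pass the test (edgeR adjusted p = 0.475).

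The splicing regulators were also lower without passing the threshold. Esrp2 had 20.9 and 17.8 CPM in overexpression libraries, against 28.1 and 27.3 CPM in WT libraries, a log2 fold change of -0.53 ± 0.15 (SE; edgeR adjusted p = 0.0763). Without overexpression replicate 1 its edgeR adjusted p was 0.0112. Esrp1 had 14.4 and 18.2 CPM, against 20.05 and 20.07 CPM in WT libraries (edgeR adjusted p = 0.386). Neither group overlapped the other for Esrp1 or Esrp2.

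**Figure D2:**
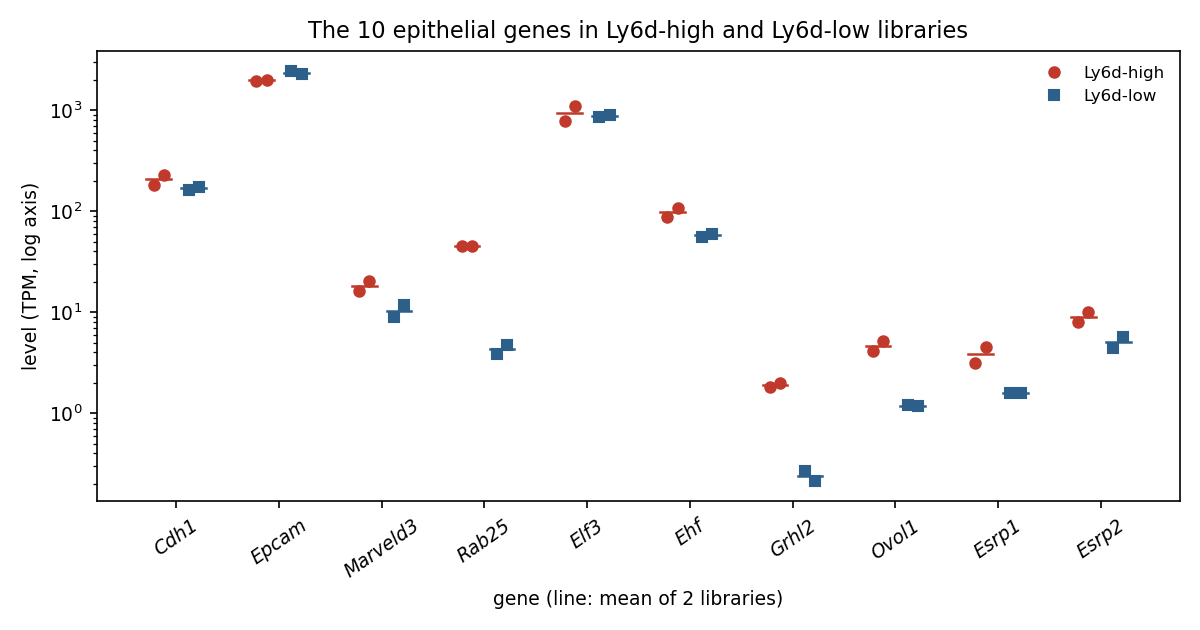
Level of each gene in the Ly6d-high (red circles) and Ly6d-low (blue squares) libraries, in TPM on a log axis; each point is a library and each line the mean of 2 libraries. Rab25, Grhl2 and Ovol1 are set furthest apart, and Epcam is the gene whose Ly6d-low libraries lie above its Ly6d-high ones.

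The second comparison set cells with high Ly6d against cells with low Ly6d. Of the 10 genes, Rab25, Ovol1, Grhl2 and Ehf were higher in Ly6d-high cells and none was lower (limma-trend on log2(TPM + 1), adjusted p under 0.05). Over all 14625 genes tested, 8.64% were higher and 1.17% lower by that test. At an unadjusted p under 0.05, Esrp1, Esrp2 and Marveld3 were higher too, and Epcam was lower, against 27% of all genes tested higher and 3.72% lower by that rule. The 2 groups did not overlap for 8 of the 10 genes that were higher and for Epcam, which was lower, against 54.4% and 10.4% of all genes tested. The median difference of the 10 genes was 0.75 on the log2(TPM + 1) scale, beside 0.25 over all genes tested. Scaled by TMM factors these medians were 0.50 and 0.01, and Rab25, Ovol1 and Grhl2 were called higher, against 4.87% of all genes higher and 1.7% lower. With no filter Rab25 alone was called, against 1.85% higher and 0.175% lower. On recovered reads edgeR called Rab25, Grhl2, Ovol1, Ehf and Esrp1 higher and Epcam lower, against 8.01% and 3.87% of all genes, and DESeq2 called the same genes except Esrp1, against 5.5% and 3.55%. Without Ly6d-high replicate 1, 6710 genes were called in place of 1435; Cdh1, Elf3, Ehf, Esrp1, Esrp2, Marveld3, Rab25 and Ovol1 were then higher and Epcam lower, and Grhl2 was not tested. Epcam was also lower without Ly6d-high replicate 2 (limma adjusted p = 0.0400).

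Rab25 had 45.5 and 44.8 TPM in Ly6d-high libraries, from 610 and 498 recovered reads, against 3.86 and 4.69 TPM in Ly6d-low libraries, from 39 and 60 reads. The high libraries agreed closely and lay far above the low ones. In mean TPM it was 10.6-fold higher, and on the log2(TPM + 1) scale 3.13 ± 0.16 higher (SE; limma adjusted p = 7.67e-05). The call held under every alternative that was run.

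Grhl2 and Ovol1, the least abundant of the factors, were higher as well. Grhl2 had 1.80 and 2.01 TPM in Ly6d-high libraries, from 124 and 115 reads, against 0.269 and 0.213 TPM in Ly6d-low libraries, from 14 reads each. Its mean was 7.89-fold higher, and it was 1.22 ± 0.23 higher in log2(TPM + 1), a scale that shrinks changes of low genes (SE; limma adjusted p = 0.0192). Grhl2 passed the filter of 1 TPM through its Ly6d-high libraries alone, so it could be tested only because it was high there. With edgeR on recovered reads its log2 fold change was 2.69 ± 0.29 (SE; adjusted p = 0.00168).

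Ovol1 had 4.09 and 5.13 TPM in Ly6d-high libraries, against 1.198 and 1.17 TPM in Ly6d-low libraries, a difference of 1.35 ± 0.21 in log2(TPM + 1) (SE; limma adjusted p = 0.00885). It was 3.89-fold higher in mean TPM, with no overlap of the groups. Testing all genes without a filter took the calls of Ovol1 (adjusted p = 0.0769) and Grhl2 (adjusted p = 0.0592).

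Of the Ets factors, Ehf was higher and Elf3 was not distinguishable. Ehf had 87.3 and 108 TPM in Ly6d-high libraries, against 55.8 and 59.9 TPM in Ly6d-low libraries (0.74 ± 0.15 in log2(TPM + 1), SE; limma adjusted p = 0.0269). That call was lost without Ly6d-low replicate 1 (adjusted p = 0.313) or replicate 2 (adjusted p = 0.153), and with TMM factors (adjusted p = 0.0541). Elf3 had 787 and 1104 TPM in Ly6d-high libraries, which enclosed the 849 and 900.3 TPM of the Ly6d-low libraries (limma adjusted p = 0.711). Its difference was 0.09 on the log2(TPM + 1) scale and -0.18 with TMM factors. The TPM ratio of Elf3 to Ehf within a library, which no scaling alters, was 9.01 and 10.2 in Ly6d-high, against 15.2 and 15.03 in Ly6d-low libraries.

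On the log2(TPM + 1) scale Cdh1 and Epcam did not pass the test and lay in opposite directions from 0. Cdh1 had 182 and 230.4 TPM in Ly6d-high libraries, against 164 and 172 TPM in Ly6d-low libraries (limma adjusted p = 0.224). Its difference of 0.28 ± 0.14 on the log2(TPM + 1) scale (SE) was close to that of the median gene, and it was -0.01 with edgeR on recovered reads. Epcam had 1955 and 2011 TPM in Ly6d-high libraries, against 2434 and 2288 TPM in Ly6d-low libraries (-0.25 ± 0.08 in log2(TPM + 1), SE; limma adjusted p = 0.105). On recovered reads Epcam was lower at -0.54 ± 0.10 with edgeR (SE; adjusted p = 0.0179) and was also called lower with DESeq2 (adjusted p = 0.00136). The TPM ratio of Epcam to Cdh1 within a library was 10.7 and 8.73 in Ly6d-high, against 14.8 and 13.3 in Ly6d-low libraries.

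Marveld3 and the splicing regulators were higher in Ly6d-high libraries but missed the threshold. Marveld3 had 16.1 and 20.2 TPM, against 8.87 and 11.7 TPM in Ly6d-low libraries (limma adjusted p = 0.0585). Esrp1 had 3.14 and 4.48 TPM, against 1.57 and 1.58 TPM in Ly6d-low libraries (limma adjusted p = 0.0529), and edgeR on recovered reads called it (adjusted p = 0.0253). Esrp2 had 7.93 and 10.05 TPM, against 4.39 and 5.67 TPM in Ly6d-low libraries (limma adjusted p = 0.0690). The groups did not overlap for any of these 3 genes.

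**Figure D3:**
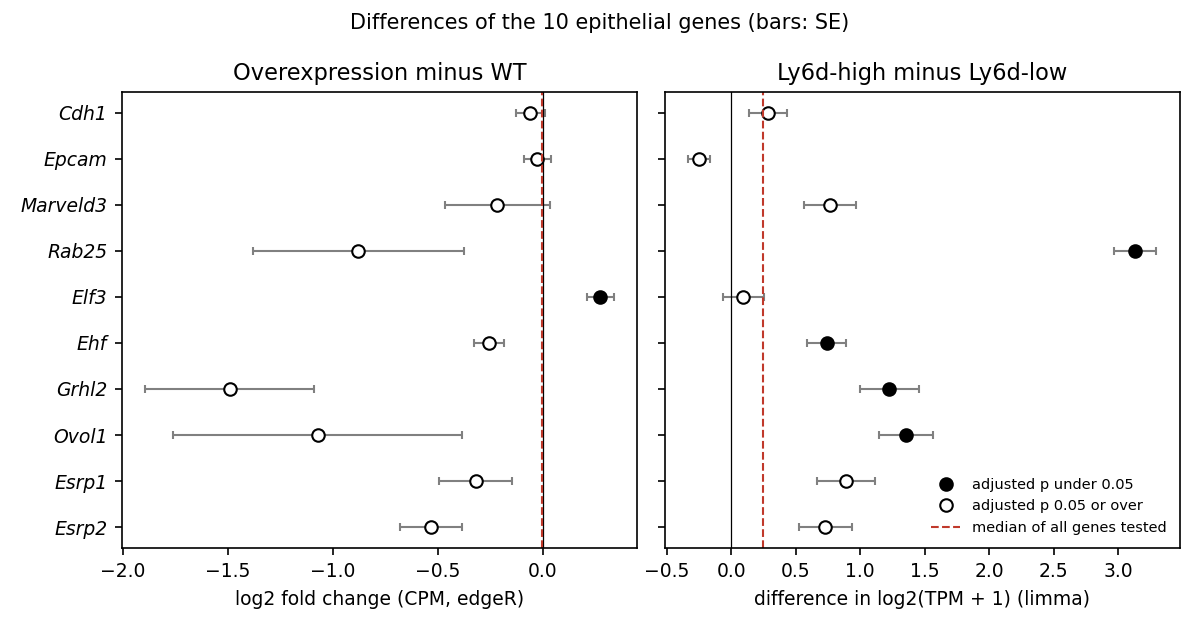
Difference of each gene between overexpression and WT cells (left, log2 fold change) and between Ly6d-high and Ly6d-low cells (right, log2(TPM + 1)), with SE; filled points have an adjusted p under 0.05 and the dashed line is the median of all genes tested. Rab25, Grhl2, Ovol1 and Ehf lie below 0 on the left, uncalled, and are called above 0 on the right. Cdh1, Esrp1, Esrp2 and Marveld3 lie on the same sides of 0, uncalled on both.

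Rab25, Grhl2, Ovol1 and Ehf were called higher in Ly6d-high than in Ly6d-low cells. Their mean CPM in overexpression cells was below that in WT cells, with overlapping groups for Rab25. Their log2 fold changes in overexpression cells were -0.88 ± 0.50, -1.49 ± 0.40, -1.07 ± 0.69 and -0.25 ± 0.07 (SE), none of them called. Cdh1, Esrp1, Esrp2 and Marveld3 lay in the same directions, uncalled by edgeR in the first comparison and by limma in the second. The comparisons share no libraries, but they come from tables normalized separately, and the difference between them was not tested.

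Most other genes of the same structures did not pass the test in overexpression cells. The same held over all genes tested, of which 2.32% were higher and 1.84% lower. None of 11 adherens junction genes and none of 9 apical recycling genes did. Of 19 tight junction and polarity genes 1 was higher, Tjp1, which encodes the scaffold protein ZO-1 (0.32 ± 0.07, SE; edgeR adjusted p = 0.0331). Another of these 19 was lower: Ildr1, a protein of tricellular tight junctions, had 2.24 and 1.89 CPM in overexpression libraries, against 7.34 and 6.41 CPM in WT libraries (-1.75 ± 0.34, SE; edgeR adjusted p = 0.0149). Of 9 desmosome genes tested, the desmocollin Dsc2 was lower, with 1.42 and 1.5 CPM against 5.80 and 6.41 CPM in WT libraries (-2.08 ± 0.38, SE; edgeR adjusted p = 0.0107). Among 10 other epithelial transcription factors tested, Klf5 was higher (0.37 ± 0.08, SE; edgeR adjusted p = 0.0262). Of 12 genes of epithelial-mesenchymal transition, fibronectin Fn1 was higher, with 12741 and 12308 CPM against 9627 and 10144 CPM in WT libraries (0.32 ± 0.05, SE; edgeR adjusted p = 0.00572).

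Each of these 5 calls was lost without at least 1 library. Ildr1 lost it without WT replicate 1 (adjusted p = 0.107), Dsc2 without WT replicate 2 (adjusted p = 0.0754), and for Klf5 it was WT replicate 2 that decided (adjusted p = 0.148). Leaving out overexpression replicate 1 took the calls of Tjp1 (adjusted p = 0.0608) and Fn1 (adjusted p = 0.0576), and for Tjp1 so did leaving out WT replicate 1 (adjusted p = 0.14).

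The same lists were counted between Ly6d-high and Ly6d-low cells, where 8.64% of all genes tested were higher and 1.17% lower. With TMM factors these shares were 4.87% and 1.7%. Of 9 apical recycling genes, 3 were higher, and with TMM factors Ap1m2 alone was. Ap1m2, an epithelial subunit of the clathrin adaptor that sorts cargo to the basolateral membrane, had 25.9 and 29.9 TPM in Ly6d-high libraries, against 2.11 and 1.46 TPM in Ly6d-low libraries (3.38 ± 0.20 in log2(TPM + 1), SE; limma adjusted p = 0.000111). The motor gene Myo5b and Rab11b, a relative of Rab25, were higher by 1.05 and 0.72 on that scale (limma adjusted p = 0.0315 and 0.0490). Both calls were lost without either Ly6d-low library, where the adjusted p ranged from 0.0888 to 0.333, and with TMM factors, at adjusted p = 0.0509 for Myo5b and 0.11 for Rab11b. Rab11b was also not called with a pseudocount of 0.1 (adjusted p = 0.0591), with mitochondrial genes left out of TPM (0.0546) or with edgeR on recovered reads (0.0514).

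Cldn7, a claudin that binds Epcam, had 467 and 509.6 TPM in Ly6d-high libraries, against 269.9 and 288 TPM in Ly6d-low libraries. It was higher by 0.80 in log2(TPM + 1) (limma adjusted p = 0.00508), a call lost without Ly6d-low replicate 1 (adjusted p = 0.0726). The tetraspanin Tspan8 fell by 0.53 (limma adjusted p = 0.0322), a call lost without Ly6d-low replicate 1 (adjusted p = 0.35) or replicate 2 (adjusted p = 0.191), or with TMM factors (adjusted p = 0.0797).

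Of 19 tight junction and polarity genes 2 were higher, against 8.64% of all genes tested. With TMM factors Ildr1 alone was higher, against 4.87% of all genes. Ildr1 had 11.4 and 14.1 TPM in Ly6d-high libraries, against 0.655 and 0.609 TPM in Ly6d-low libraries (3.07 ± 0.20 in log2(TPM + 1), SE; limma adjusted p = 0.000168). The polarity kinase gene Prkcz was higher by 1.08 (limma adjusted p = 0.0429), a call lost without Ly6d-low replicate 1 (adjusted p = 0.0663) or replicate 2 (adjusted p = 0.0883), or with TMM factors (adjusted p = 0.0731). Of 9 desmosome genes tested, Dsc2 and the desmoglein Dsg2 were higher: Dsc2 had 2.46 and 3.62 TPM, against 0.408 and 0.446 TPM in Ly6d-low libraries (limma adjusted p = 0.0111). Dsg2 had 24.3 and 29.0 TPM, against 13.9 and 13.8 TPM in Ly6d-low libraries, a call lost without either Ly6d-low library (adjusted p = 0.163 and 0.151).

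Nectin4 was the called gene among 10 adherens junction genes tested, while 8.64% of all genes were higher and 1.17% lower. It had 2.36 and 4.62 TPM in Ly6d-high libraries, against 0.0884 and 0.175 TPM in Ly6d-low libraries (limma adjusted p = 0.00823). Of 10 other epithelial transcription factors tested, none was higher, and the Ets factor Spdef fell by 0.93, a call lost without Ly6d-low replicate 1 (adjusted p = 0.349) or replicate 2 (adjusted p = 0.0789). None of 12 genes of epithelial-mesenchymal transition passed the test. With no filter, Rab25, Ap1m2, Ildr1 and Cldn7 kept their calls among the genes named here as higher. Ildr1, Dsc2, Nectin4, Prkcz and Myo5b, like Grhl2, could be tested only because of their level in Ly6d-high libraries.

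**Figure D4:**
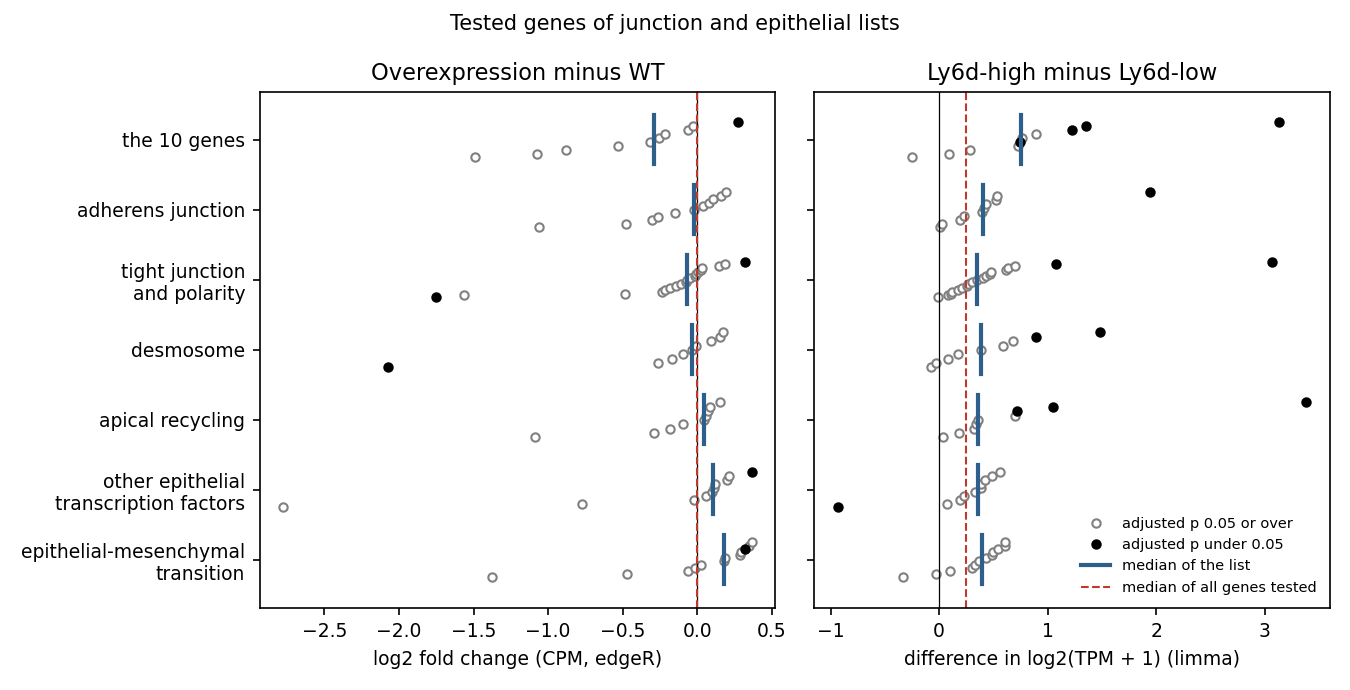
Every tested gene of the junction and epithelial lists shown, as the difference between overexpression and WT cells (left) and between Ly6d-high and Ly6d-low cells (right), on the log2 scales named on the axes; blue bars are list medians. On the right a few genes of several lists lie far above the dashed median of all genes, and the median of the 10 genes lies highest.

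Ildr1 and Dsc2 passed the test in both comparisons, lower in overexpression cells and higher in Ly6d-high cells. In overexpression cells the call was lost without WT replicate 1 for Ildr1 and without WT replicate 2 for Dsc2. In the second comparison both could be tested only because of their level in Ly6d-high libraries. With no filter Dsc2 was not called there (limma adjusted p = 0.073). Ap1m2, which was called in Ly6d-high cells, had 3.17 and 2.94 CPM in overexpression libraries, against 6.41 and 6.47 CPM in WT libraries, and was not called there (log2 fold change -1.09 ± 0.32, SE; edgeR adjusted p = 0.0889).

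Markers of other cells moved with these comparisons. The 12 acinar markers summed to 1461 and 1626 CPM in overexpression libraries, against 19812 and 20285 CPM in WT libraries, and to 14213 and 12348 TPM in Ly6d-high, against 6223 and 6217 TPM in Ly6d-low libraries. The summed acinar level stood in the same order as the mean levels of Rab25, Grhl2, Ovol1, Ehf, Ildr1 and Dsc2 in both comparisons. These genes were grouped above for that order, so the match was fixed by their choice. Cdh1, Esrp1, Esrp2 and Marveld3 had the same order of means, and Elf3 and Epcam did not. A link with acinar cells was not tested. Of 11 acinar genes tested in each comparison, 11 were lower in overexpression and 8 were higher in Ly6d-high cells, or 4 with TMM factors. Ptf1a, which defines acinar cells, was at 0 in overexpression replicate 2 and in Ly6d-low replicate 1.

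The 9 endocrine markers summed to 595 and 645 CPM in overexpression libraries, against 1394 and 1232 CPM in WT libraries, and to 409 and 358 TPM in Ly6d-high, against 764 and 721 TPM in Ly6d-low libraries. The 7 plasma cell markers summed to 334 and 353 CPM in overexpression, against 31.2 and 28.0 CPM in WT libraries, and to 1857 and 1637 TPM in Ly6d-high, against 4.43 and 2.84 TPM in Ly6d-low libraries. Pan-leukocyte, macrophage, neutrophil and T cell markers were likewise higher in sum in overexpression than in WT libraries and in Ly6d-high than in Ly6d-low libraries. The 8 T cell markers were near the floor, at 5.03 and 6.33 CPM in overexpression against 1.88 and 1.62 CPM in WT libraries. Their sums were 13.0 and 9.76 TPM in Ly6d-high against 8.06 and 6.23 TPM in Ly6d-low libraries. In overexpression cells 0 of 2 tested were called, and in Ly6d-high cells 1 of 3, a call lost with no filter. Between Ly6d-high and Ly6d-low libraries the neutrophil sum was almost only Ltf, at 155.5 and 193 TPM against 59.7 and 61.45 TPM. The whole sums were 161 and 196 TPM against 60.1 and 62.9 TPM, and 2 of the 8 neutrophil markers could be tested there. The 8 endothelial markers summed to 161 and 186 CPM in overexpression, against 325 CPM in each WT library. The 8 fibroblast markers summed to 6248 and 6217 CPM, against 5254 and 5836 CPM in WT libraries. In Ly6d-high libraries the endothelial sums were 89.0 and 118 TPM, against 68.6 and 74.5 TPM in Ly6d-low libraries. The fibroblast sums there were 571 and 658 TPM, against 526 and 540 TPM, and no tested gene of these lists was called. The part of these cells in the differences of the 10 genes was not tested, and in such bulk samples fewer cells of a type and less RNA per cell cannot be told apart.

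**Figure D5:**
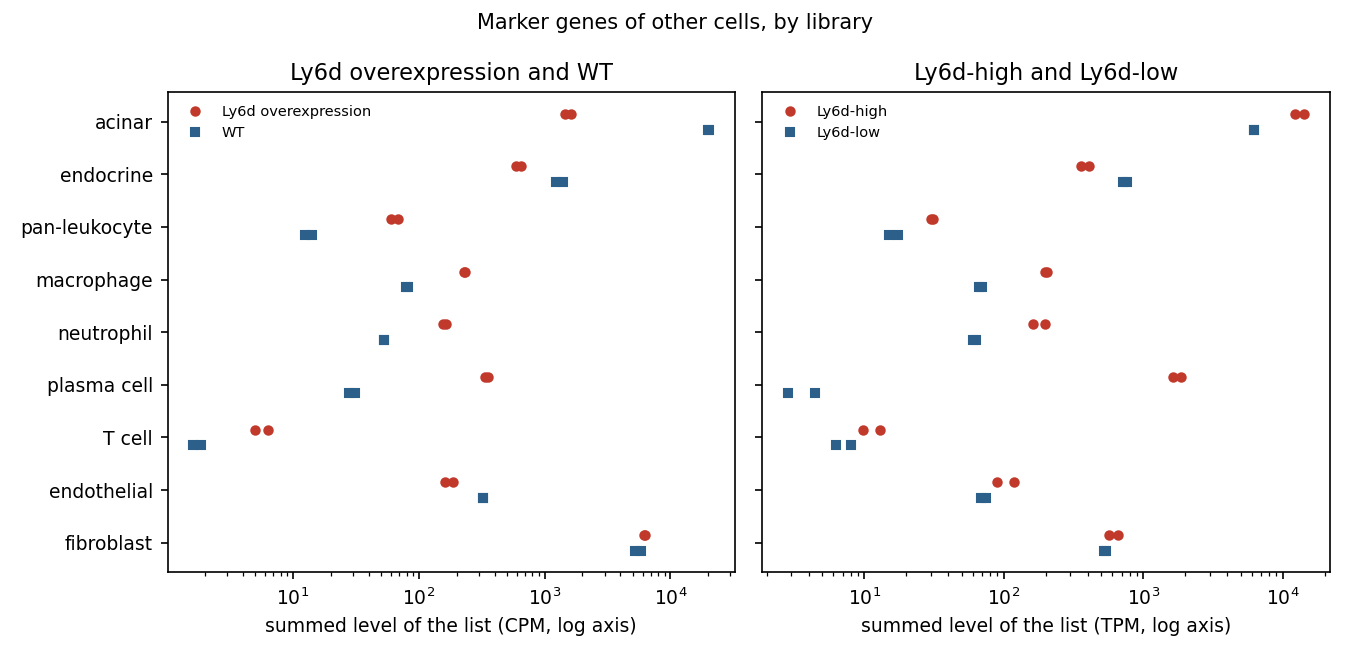
Summed level of each marker list by library on log axes, for overexpression (red circles) and WT (blue squares) in CPM at left and for Ly6d-high (red circles) and Ly6d-low (blue squares) in TPM at right. Acinar markers lie lower in overexpression than in WT and higher in Ly6d-high than in Ly6d-low libraries, and plasma cell markers lie higher in both.

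In the GENCODE annotation of GRCm38, 5 of the 10 genes share exonic bases with a gene on the opposite strand, and the sources used here do not say whether counting used the strand. Coordinates below are those of the deposited tables. Of the 3488 exonic bases of Ovol1 in GENCODE, 19.8% lie in the pseudogene Gm31166. The deposited tables list Ovol1 with 2900 bases (chromosome 19, 5549137 to 5560575), and the share was not computed for that model. Gm31166 had 36 and 19 counts in overexpression libraries, beside 16 and 12 for Ovol1, and 31 and 6 in WT libraries, beside 29 and 25. It had 9 and 8 recovered reads in Ly6d-high libraries, against 2 and 5 in Ly6d-low libraries. For Elf3 (chromosome 1, 135253575 to 135258568) 7.31% lie in the antisense gene Gm26642, and for Esrp2 (chromosome 8, 106130319 to 106136974) 5.05% lie in Nfatc3. Esrp1 (chromosome 4, 11331933 to 11386783) shares 2.01%. Grhl2 (chromosome 15, 37233036 to 37363569) shares 1.96% with the antisense gene Gm16136, which had 131 and 64 recovered reads in Ly6d-high libraries, against 11 and 6 in Ly6d-low libraries. Nfatc3 had 1284 and 1026 counts in overexpression and 1092 and 896 counts in WT libraries, more than Esrp2. If counting did not use the strand, reads of these genes and their partners cannot be told apart where they overlap. Cdh1 (chromosome 8, 106603351 to 106670246), Epcam (chromosome 17, 87635979 to 87651106), Rab25 (chromosome 3, 88542029 to 88548300), Ehf (chromosome 2, 103263433 to 103303278) and Marveld3 (chromosome 8, 109947914 to 109962203) share none.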

How the data were processed

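The series labels 16 samples; the 8 of tumour tissue were not analysed here. The submitters' processing notes name fastp, HISAT2, featureCounts and DESeq2, with no versions, and mm9 as the build used by the authors. The tables' gene coordinates are nonetheless those of GRCm38, since 98.3% of the 54495 genes found in GENCODE M21 have the same chromosome, start and end. The authors deposited raw counts for overexpression and WT cells, and TPM for Ly6d-high and Ly6d-low cells, with the gene length in bases beside them. No label matched 2 other per-sample count columns, which were left out.

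Raw counts entered edgeR 4.0.16 under R 4.3.3 (filterByExpr, TMM factors, quasi-likelihood test), with SE taken as log2 fold change over the root of F. TPM entered limma-trend (limma 3.58.1) as log2(TPM + 1), for genes reaching 1 TPM in 2 or more of the 4 libraries. Adjusted p-values are Benjamini-Hochberg over all genes tested, with a threshold of 0.05. Reads were recovered from TPM and gene length, and 100% of values above 0 were whole within 0.1 reads. Both tests were tested on simulated data. Alternatives were DESeq2 1.42.0, other scalings, filters and pseudocounts, and each library left out. The 10 genes and all lists were chosen with earlier results of these data known. The 10 genes are named whatever their values, as are up to 4 called genes of each other junction or epithelial list. The rule also covers lists of other cell types, which are given as sums and counts, apart from Ptf1a and Ltf. Some genes of the lists are not reported here.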

Additional observations from a re-analysis of the deposited data

How the results depend on the processing

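The direction of 9 of the 10 genes in overexpression cells and of 8 in Ly6d-high cells was the same under every alternative run. The exceptions were Marveld3 in overexpression cells, at -0.67 to 0.12 with 1 library left out, Cdh1 in Ly6d-high cells with edgeR (-0.0074) and DESeq2 (-0.021) on recovered reads, and Elf3 there with TMM factors (-0.18), edgeR (-0.20), DESeq2 (-0.21), and at -0.15 to 0.34 with 1 library left out. With no filter, 1187 genes passed in overexpression cells in place of 656 (608 higher, 579 lower, 3 of the 10 genes lower), and 531 in Ly6d-high cells in place of 1435 (485 higher, 46 lower, 1 of the 10 genes higher). Without marker genes of other cells 240 genes were higher in overexpression cells in place of 366. Leaving out 1 library at a time gave 565 to 1584 genes in overexpression cells, 327 to 694 higher and 238 to 890 lower, with 0 to 1 of the 10 genes higher and 0 to 3 lower. For Ly6d-high cells it gave 931 to 6710 genes, 833 to 5599 higher and 98 to 1111 lower, with 3 to 8 of the 10 genes higher and 0 to 1 lower. A group left with 1 library was assumed to vary like the other. TMM factors left 712 genes higher in Ly6d-high cells in place of 1264. On recovered reads 591 (edgeR) and 607 (DESeq2) genes were lower there in place of 171, with 1 of the 10 genes lower in each. The causes were not tested. Ranked by CPM, 4 genes kept their place in overexpression and 5 in WT cells.

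With the replicate number as a block, 4179 genes passed in Ly6d-high cells, 3581 higher and 598 lower, with 7 of the 10 genes higher and 1 lower. The labels do not say that the numbers pair libraries, and deviations of same-numbered libraries correlated at 0.068 over 14625 genes and 2 pairs. No paired analysis was possible for overexpression cells because their columns carry no number of a labelled sample. Low counts limit Grhl2, Ovol1 and Rab25 most, and 2 libraries a group limit all tests.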
